A study of Mus musculus with 4 samples.

Results

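Transcripts of 38 genes that act in mitosis were compared between sorted β cells of control and Robo mutant mouse neonates. The 38 genes were taken by symbol from a table of 51912 genes, and each symbol matched 1 row. They span entry into mitosis, the spindle and kinetochores, the checkpoint, the destruction of mitotic proteins and cytokinesis. The data were RNA sequencing libraries of pancreatic β cells at day 13, from islets dissociated and sorted for nuclear mCherry. The 2 control libraries were Robo1+/+; Robo2+/+, and the 2 from Robo mutants were Robo1delta/delta with the conditional allele Robo2flx/flx. Robo1 and Robo2 encode receptors of the Slit guidance proteins. Every library, control and mutant, also carried 1 copy of Ucn3-Cre, a recombinase driven from a gene of maturing β cells, and 1 copy of the Cre-dependent reporter Rosa26-lsl-H2B-mCherry. The reporter therefore marks cells that have switched Ucn3 on, and the loss of Robo2, but not of Robo1, depends on Cre. Whether each library is a different animal is not given in the labels, and the p-values therefore cover the spread of these 4 libraries, which could be technical.

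A dividing cell builds up cyclin A and cyclin B, which bind the kinase Cdk1 and drive it into mitosis. Polo and Aurora kinases then assemble the spindle, the checkpoint holds the anaphase-promoting ubiquitin ligase until all chromosomes are attached, and cyclin B is destroyed. Most of these genes are transcribed together in G2 and M phase, under Foxm1, B-Myb and the MuvB complex. β cells of the mouse divide actively in the first weeks after birth and mostly stop as they mature. In bulk libraries such as these, fewer dividing cells and less transcript per dividing cell cannot be told apart.

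The libraries held 38886129 to 49593712 counts. Robo1 was at 48.5 and 104 CPM (counts relative to library depth) in the controls and 22.3 and 21.0 CPM in the mutant libraries, and Robo2 at 75.3 and 118 CPM against 32.7 and 25.6 CPM. Neither overlapped between the genotypes (log2 changes -1.82 and -1.73, DESeq2 adjusted p = 0.00186 and 1.99e-05, edgeR adjusted p = 0.680 for both). The β-cell markers Ins1, Ins2, Mafa, Nkx6-1, Pdx1 and Ucn3 were present in every library, and Ins2 alone stood at 99747 CPM or more. CPM values here are scaled by the TMM method, which corrects the totals for differences in composition. With this scaling 9 of 10 β-cell markers were lower, 8 of them lowest in Robo mutant 2, beside 51.3% and 31.0% of all tested genes. In 4 of the 10 both mutant libraries were below both controls, beside 20.4% of all tested genes. The β-cell marker sums were 231397 and 197648 CPM in the controls, 227525 CPM in Robo mutant 1 and 160290 CPM in Robo mutant 2. Robo mutant 2 stood apart on the first principal component, which held 51.4% of the variance.

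As a group, the mitosis transcripts were lower in the mutant libraries, and most of all in Robo mutant 2. Together they took 17791 and 16690 counts in control 1 and control 2, 15570 in Robo mutant 1 and 7264 in Robo mutant 2. Scaled, the sums were 372 and 410 CPM in the controls, 311 CPM in Robo mutant 1 and 160 CPM in Robo mutant 2. Both mutant sums lay under both control sums. Robo mutant 1 lay nearer to the controls than to Robo mutant 2. As a share of all counts and before scaling, they stood at 369 CPM in control 1 (exact 95% binomial interval 364 to 374) and 429 in control 2 (423 to 436). It was 314 in Robo mutant 1 (309 to 319) and 152 in Robo mutant 2 (149 to 156). These intervals cover counting error only and hold if the values are unscaled counts.

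All 38 genes passed the filter of at least 10 counts in at least 2 libraries, Kif20b only through its control counts, so that it had to be lower. Of the 38, 33 had a log2 change below 0 and 5 above 0, against 51.3% of the 16517 tested genes below 0. The median log2 change was -0.81, beside -0.013 over all tested genes, and the members' quartiles were -1.21 and -0.52. In 20 members both mutant libraries were below both controls, an order found in 20.4% of tested genes, and in 1 member, Mad2l1, both were above, an order found in 16.1%. The remaining 17 overlapped between the genotypes.

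None of the 38 passed the main test (edgeR's quasi-likelihood test with Benjamini-Hochberg adjustment, 0 members with an adjusted p under 0.05, against 0 of 16517 genes, or 0.00%). At an unadjusted p under 0.05, 6 members were lower and 0 higher, beside 4.21% and 1.99% of all tested genes. DESeq2 called 3 members lower and 0 higher at an adjusted p under 0.05, beside 0.605% and 0.309% of all tested genes. Those 3 were Kif20b, Ccnb1 and Hmmr. Kif20b, also 1 of the 6, was tested only through its control counts and had to be lower. Without control 1 the count at an unadjusted p under 0.05 was 2 of 37 members tested, beside 0.256% of all genes then tested, and without control 2 it was 1 of 37, beside 0.319%. The count fell together with that over all genes. Without Robo mutant 1 it was 22 (12.8% of all genes then tested) and without Robo mutant 2 it was 9 (13.0%).

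**Figure D1:**
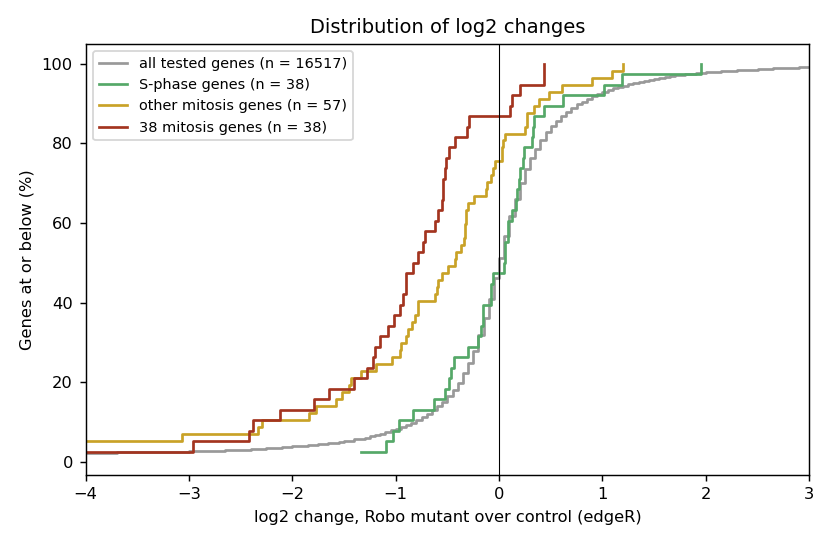
Cumulative distribution of the log2 change, Robo mutant over control as fitted by edgeR, for the 38 mitosis genes, 57 other mitosis genes, 38 S-phase genes and all 16517 tested genes; each line gives the percent of a set at or below the value on the horizontal axis, which is drawn from -4 to 3. The line of the 38 mitosis genes lies left of the others over most of its range, with a median of -0.81, and that of the S-phase genes follows all tested genes.

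The 2 mutant libraries differed from each other more than the 2 controls did. Across members, control 1 and control 2 differed by a median of 0.44 on the log2(CPM + 0.5) scale in either direction, beside 0.24 over all tested genes. The mutant libraries differed by a median of 1.00, beside 0.41 over all tested genes. Over the 6390 tested genes with a mean count in the members' range, the medians were 0.29 for the controls and 0.52 for the mutant libraries. Robo mutant 2 was below both controls in 36 of 38 members and above both in 2, Mad2l1 and Kif4, while 42.0% of all tested genes were below both controls there. Robo mutant 1 was below both controls in 21 members, between them in 10 and above both in 7, beside 40.4% of tested genes below and 35.8% above. The median difference from the mean of the controls was -0.39 in Robo mutant 1 and -1.25 in Robo mutant 2 on that scale. Without Robo mutant 2, the fitted median was -0.43, with 28 of 38 members lower, and without Robo mutant 1 it was -1.46, with 36 lower.

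**Figure D2:**
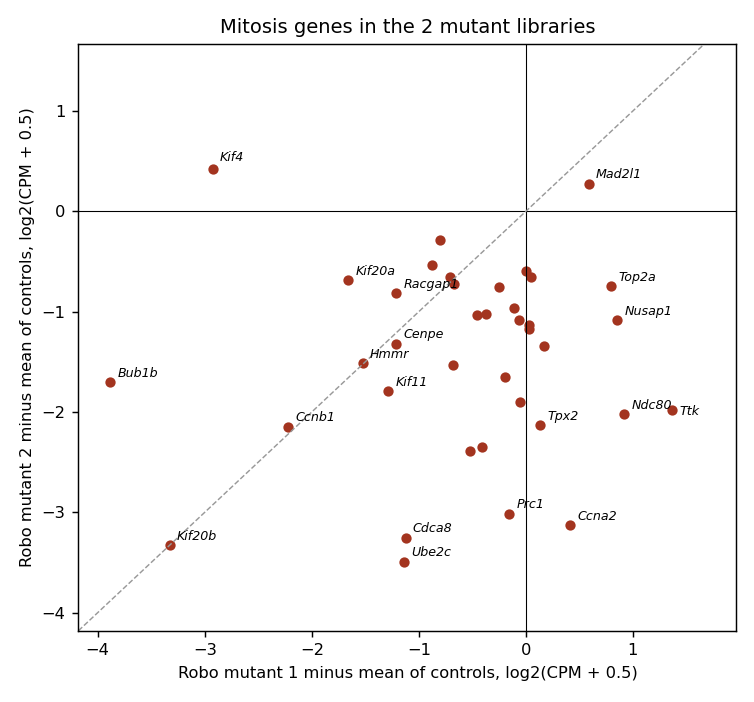
Each point is 1 of the 38 mitosis genes, placed by its difference from the mean of the 2 controls in Robo mutant 1 (horizontal) and in Robo mutant 2 (vertical), both on the log2(CPM + 0.5) scale, with a dashed line where the 2 are equal. Of the 38 points, 36 lie below 0 for Robo mutant 2 and 26 for Robo mutant 1; Ccnb1, Hmmr and Cenpe lie near the dashed line, and Ccna2, Prc1 and Ndc80 far below it.

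Marker transcripts of other cell types also differed between the same libraries. Of 15 acinar genes 14 were higher, and the list summed to 7283 and 766 CPM in control 1 and control 2, 3226 in Robo mutant 1 and 66370 in Robo mutant 2. All 10 stromal genes were lower, with sums of 2433 and 705 CPM in the controls, 1098 in Robo mutant 1 and 13.0 in Robo mutant 2, where Col1a1, Pdgfra, Pdgfrb, Rgs5 and Dpt were at 0 counts. Col3a1, the most abundant of them, was at 1338 and 426 CPM in the controls, 615 in Robo mutant 1 and 8.93 in Robo mutant 2. Endothelial genes summed to 9.25 and 21.3 CPM in control 1 and control 2 and to 6.04 and 6.53 CPM in Robo mutant 1 and Robo mutant 2, and all 4 tested of 10 were lower. Esam, the most abundant of them, was close to unchanged (log2 change -0.014), with its highest level in Robo mutant 2 (5.63 CPM). Kdr, Flt1, Tie1, Tek and Emcn were at 0 counts in every library but control 2. Macrophage genes, all 12 higher, summed to 104 and 36.4 CPM in the controls and 102 and 150 CPM in the mutant libraries. Of these, Itgam was at 0 counts in both controls, was tested only through the mutant libraries and had to be higher. In 6 of the 12, Itgam included, both mutant libraries were above both controls, beside 16.1% of all tested genes. So Robo mutant 2, lowest for mitosis genes, was also lowest for β-cell and stromal and highest for acinar transcripts, and control 2, highest for mitosis genes, was highest for endothelial ones. Robo mutant 1 lay between the controls for the stromal and acinar sums. Delta-cell genes, all 5 higher, summed to 1084 and 1002 CPM in the controls and 2538 and 1308 CPM in Robo mutant 1 and Robo mutant 2, so both mutant sums were above both controls. Sst, the somatostatin gene and the most abundant of them, was at 793 and 712 CPM in the controls and 2145 and 803 CPM in the mutant libraries. Of 8 alpha-cell genes 7 were higher, and their sums overlapped, at 23947 and 12034 CPM in the controls and 19413 and 24300 CPM in the mutant libraries. Beside these counts by direction, 51.3% of all tested genes were lower. The part of other cell types in the mitosis result was not tested.

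**Figure D3:**
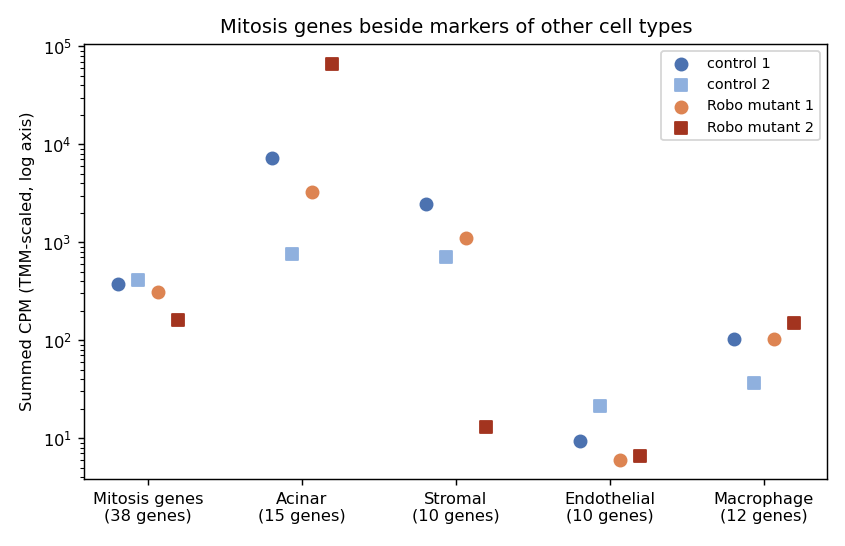
Summed CPM, TMM-scaled and on a log axis, of the 38 mitosis genes and of markers of acinar, stromal, endothelial and macrophage cells in each of the 4 libraries. Robo mutant 2 (dark squares) has the lowest mitosis sum, 160 CPM, the lowest stromal sum, 13.0 CPM, and the highest acinar sum, 66370 CPM.

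Promoters of mitotic genes are known for CCAAT boxes, bound by the factor NF-Y, and for the cell cycle genes homology region, bound by the MuvB complex. RefSeq promoters were at hand for 31 of the 38 members. In the 250 bases before the start site, CCAAT was found on either strand in 24 of the 31 genes (77.4%), against 37.5% of 27025 genes with a promoter. At least 2 CCAAT boxes were found in 17 (54.8%, against 11.5%). TTTGAA or TTCGAA, the letters of the homology region, was found on either strand in 10 (32.3%, against 19.6%), and all 10 also held CCAAT, a combination in 7.0% of all genes. TTCGAA reads the same on both strands, and matches that overlap each other were each counted. Among 49 other mitosis genes, CCAAT was found in 63.3% and the homology letters in 49.0%, and among 30 S-phase genes in 66.7% and 20.0%. A match is a description of the letters and not a bound site. Promoter stretches of 150 bases are printed from RefSeq (GRCm38.p6), on the strand of the gene and ending before its first annotated exon, with matches in capitals (ATTGG is CCAAT and TTCAAA is TTTGAA on the other strand). They belong to the 4 members of smallest p whose stretch holds a match (those of Kif20b and Cenpe held none), to the Cdk1, Cdc20 and cyclin B2 genes, which were lower in both mutant libraries without passing a test, and to Top2a, which was not lower.
Ccnb1 (chr13:100786571-100786720, minus strand): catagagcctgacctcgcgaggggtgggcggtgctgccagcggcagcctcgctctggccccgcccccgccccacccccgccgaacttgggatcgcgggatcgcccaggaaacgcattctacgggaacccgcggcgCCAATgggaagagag
Hmmr (chr11:40733438-40733587, minus strand): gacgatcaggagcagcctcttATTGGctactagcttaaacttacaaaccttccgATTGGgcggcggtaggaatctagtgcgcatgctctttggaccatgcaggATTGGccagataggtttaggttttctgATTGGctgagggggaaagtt
Racgap1 (chr15:99651657-99651806, minus strand): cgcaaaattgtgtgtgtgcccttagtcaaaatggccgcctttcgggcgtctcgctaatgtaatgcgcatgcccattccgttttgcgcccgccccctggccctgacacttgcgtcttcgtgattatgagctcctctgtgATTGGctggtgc
Kif11 (chr19:37376232-37376381, plus strand): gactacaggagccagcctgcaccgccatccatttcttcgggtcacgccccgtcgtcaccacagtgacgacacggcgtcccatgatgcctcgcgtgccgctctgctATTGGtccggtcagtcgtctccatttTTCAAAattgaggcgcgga
Cdk1 (chr10:69352939-69353088, minus strand): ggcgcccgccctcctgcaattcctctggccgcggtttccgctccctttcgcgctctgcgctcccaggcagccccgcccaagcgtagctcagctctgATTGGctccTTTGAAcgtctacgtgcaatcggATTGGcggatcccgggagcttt
Cdc20 (chr4:118437353-118437502, minus strand): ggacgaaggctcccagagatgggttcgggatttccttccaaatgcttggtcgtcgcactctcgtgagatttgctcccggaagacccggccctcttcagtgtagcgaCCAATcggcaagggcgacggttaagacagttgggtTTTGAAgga
Ccnb2 (chr9:70421555-70421704, minus strand): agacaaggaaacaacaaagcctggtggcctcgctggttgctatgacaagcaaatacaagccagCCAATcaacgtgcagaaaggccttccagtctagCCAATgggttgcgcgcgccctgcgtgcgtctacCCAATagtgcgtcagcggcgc
Top2a (chr11:99024190-99024339, minus strand): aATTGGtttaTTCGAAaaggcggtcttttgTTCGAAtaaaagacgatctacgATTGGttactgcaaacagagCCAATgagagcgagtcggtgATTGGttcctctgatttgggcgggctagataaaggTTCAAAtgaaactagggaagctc

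The stretch of Top2a, with a log2 change of 0.20, held 4 CCAAT boxes and 3 homology matches. That of Hmmr, with a log2 change of -1.65, held 4 CCAAT boxes and 0 homology matches. The stretch of Ccnb1 ended 84 bases before the RefSeq start, and a second CCAAT of its 250-base window lay closer to that start.

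The cyclin and kinase group opens mitosis. Ccnb1 (ENSMUSG00000041431, chr13:100778650-100786570, GRCm38), the gene of cyclin B1, stood at 16.4 and 10.7 CPM in control 1 and control 2 and at 2.46 and 2.62 CPM in Robo mutant 1 and Robo mutant 2. Both mutant libraries were low and close to each other, and the genotypes did not overlap. The means were 13.6 ± 4.04 and 2.54 ± 0.111 CPM (SD, n = 2 each), 5.35-fold lower in the mutant, for a log2 change of -2.42 (standard error, SE, 0.40). The edgeR test gave an unadjusted p of 0.00268 and an adjusted p of 0.680, whereas DESeq2 gave an adjusted p of 0.00101. Ccnb1 has near-identical copies in the genome, of which 2 were in the table, and together those held 7, 3, 6 and 5 counts in the 4 libraries, so reads assigned to them were few in all libraries.

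Ccnb2, the gene of cyclin B2, was at 9.38 and 10.9 CPM in the controls and 5.60 and 8.23 CPM in the mutant libraries, lower in both mutants by less than Ccnb1 (log2 change -0.56, SE 0.37). Cdk1, the kinase both cyclins bind, was at 6.16 and 11.2 CPM in the controls and 5.002 and 2.55 CPM in the mutant libraries (log2 change -1.20, SE 0.58). Its controls differed by more CPM than control 1 and Robo mutant 2 did. Ccna2, the gene of cyclin A2, was at 14.6 and 22.6 CPM in the controls, 24.4 CPM in Robo mutant 1 and 1.63 CPM in Robo mutant 2. Robo mutant 1 was thus the highest of the 4 libraries and Robo mutant 2 the lowest by far. An antisense neighbour of Ccna2, Exosc9, shares 12.5% of its exonic bases and held 1359 to 1994 counts per library, and these libraries carry no strand. Foxm1, which encodes a transcription factor of G2 and M genes, was at 5.24, 6.06 and 5.38 CPM in control 1, control 2 and Robo mutant 1 and at 2.40 CPM in Robo mutant 2 (log2 change -0.54).

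Mki67 and Top2a, the most used markers of dividing cells, overlapped between the genotypes. Mki67 encodes Ki-67, a coat protein of mitotic chromosomes, and stood at 30.7 and 14.1 CPM in the controls and 19.3 and 10.4 CPM in the mutant libraries (log2 change -0.59, SE 0.52). The controls differed more from each other than the genotype means did, and without control 1 its log2 change was 0.079. Top2a, the gene of the topoisomerase that untangles chromosomes, was at 19.7 and 28.2 CPM in the controls, 41.3 CPM in Robo mutant 1 and 13.9 CPM in Robo mutant 2. The mutant libraries bracketed the controls. Top2a alone made up 13.2% of all mitosis counts of Robo mutant 1, and without it the sums of the other members were 352 and 381 CPM in the controls and 270 and 146 CPM in the mutant libraries.

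**Figure D4:**
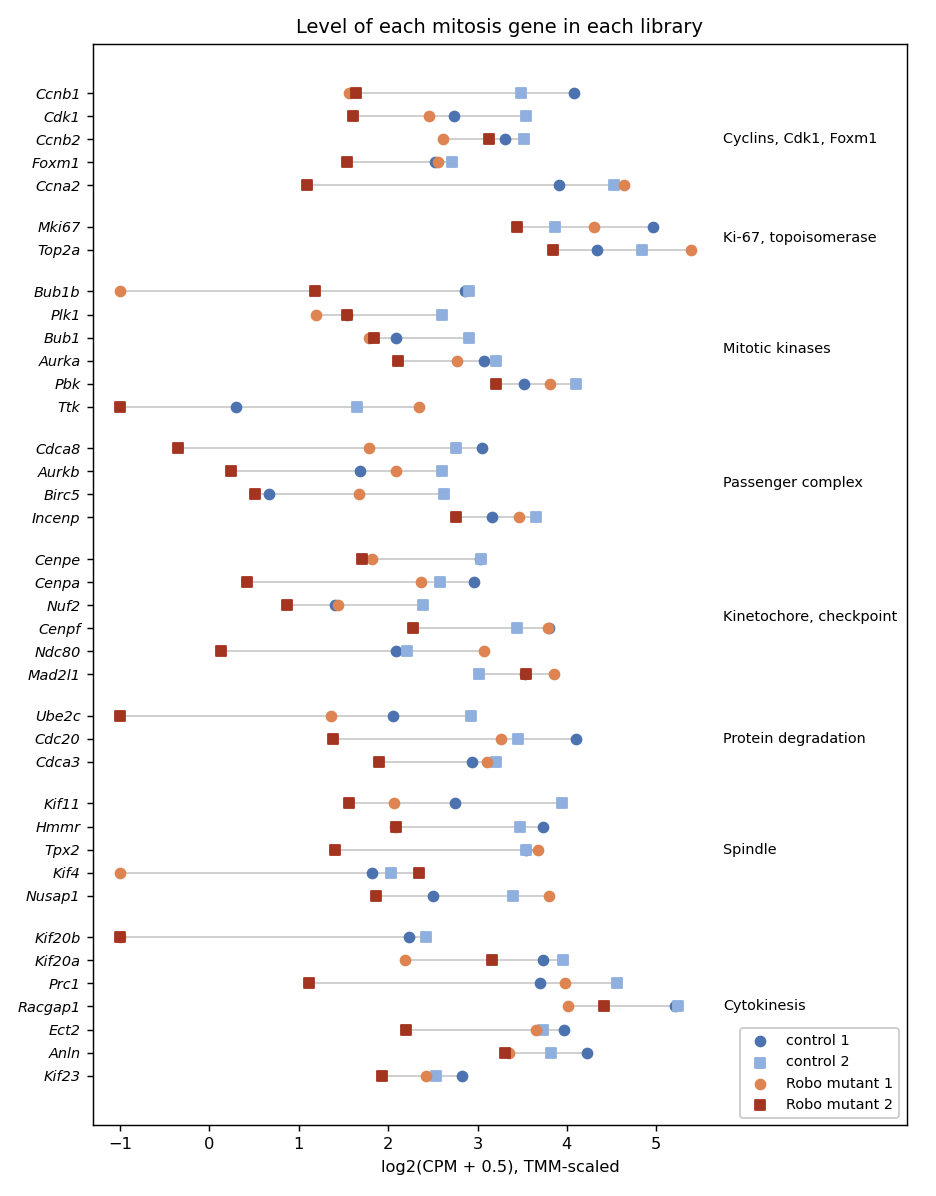
Level of each of the 38 mitosis genes in each library on the log2(CPM + 0.5) scale, grouped by role, with the genes of a group in order of their log2 change; a grey line spans the 4 values and points of nearly equal value cover each other. Both mutant points lie left of both control points in 20 genes, such as Ccnb1, Hmmr and Racgap1, and a value of -1 marks 0 counts.

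Among the mitotic kinases, Aurka, which acts on the spindle poles, was at 7.90 and 8.71 CPM in the controls and 6.30 and 3.83 CPM in the mutant libraries (log2 change -0.71, SE 0.43). Plk1, the Polo kinase, was at 2.40 and 5.57 CPM in the controls and 1.78 and 2.40 CPM in the mutant libraries, with control 1 level with Robo mutant 2. Bub1, a checkpoint kinase of the kinetochore, was at 3.74 and 6.99 CPM in the controls and 2.94 and 3.08 CPM in the mutant libraries. All 3 were lower in both mutant libraries, but for Plk1 and Bub1 the controls differed by more than the genotype means. Bub1b, which encodes the checkpoint protein BubR1, held 324 and 284 counts in the controls, 0 in Robo mutant 1 and 80 in Robo mutant 2. Ttk, the gene of the checkpoint kinase Mps1, held 35 and 108 counts in the controls, 229 in Robo mutant 1 and 0 in Robo mutant 2. The 2 checkpoint genes were thus at 0 in opposite mutant libraries. Pbk, a mitotic kinase gene, was at 10.9 and 16.7 CPM in the controls and 13.5 and 8.75 CPM in the mutant libraries.

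The chromosomal passenger complex, which corrects wrong spindle attachments, was low in Robo mutant 2 in all 4 of its members, and its sum was 20.1 and 29.6 CPM in the controls, 19.9 CPM in Robo mutant 1 and 8.14 CPM in Robo mutant 2. Cdca8, the gene of its subunit borealin, was at 7.79 and 6.28 CPM in the controls, 2.94 CPM in Robo mutant 1 and 0.286 CPM in Robo mutant 2 (log2 change -2.12, SE 1.15). In the other 3 the genotypes overlapped. Aurkb, the kinase of the complex, was at 2.72 and 5.57 CPM in the controls and 3.74 and 0.682 CPM in the mutant libraries. Birc5, the gene of survivin, was at 1.09 and 5.67 CPM in the controls and 2.70 and 0.924 CPM in the mutant libraries. Incenp, its scaffold, was at 8.48 and 12.1 CPM in the controls and 10.5 and 6.25 CPM in the mutant libraries. For these 3, Robo mutant 1 lay between the controls.

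Kinetochore and checkpoint genes were divided, 4 of 6 lower and 2 higher. Cenpe (ENSMUSG00000045328, chr3:135212537-135273611, GRCm38), a kinesin that moves chromosomes to the spindle equator, stood at 7.63 and 7.71 CPM in the controls and 3.02 and 2.77 CPM in the mutant libraries. Each genotype was tight, and the level was 2.65-fold lower in the mutant (log2 change -1.40, SE 0.42). The edgeR test gave an unadjusted p of 0.0238 and an adjusted p of 0.687, and DESeq2 an adjusted p of 0.298. Cenpa, the gene of the centromeric histone, was at 7.27 and 5.47 CPM in the controls and 4.64 and 0.836 CPM in the mutant libraries. Nuf2 and Ndc80 encode partners in the complex that grips microtubules. Nuf2 was at 2.15 and 4.74 CPM in the controls and 2.22 and 1.32 CPM in the mutant libraries, while Ndc80 was at 3.76 and 4.15 CPM in the controls, 7.90 CPM in Robo mutant 1 and 0.594 CPM in Robo mutant 2. The 2 partners thus differed in Robo mutant 1, which was near control 1 for Nuf2 and above both controls for Ndc80. Cenpf, an outer kinetochore gene, was at 13.4 and 10.4 CPM in the controls and 13.3 and 4.35 CPM in the mutant libraries. Mad2l1, the gene of the checkpoint inhibitor Mad2, was at 11.03 and 7.58 CPM in the controls and 14 and 11.2 CPM in the mutant libraries, the reverse order of most members (log2 change 0.44, SE 0.34, edgeR adjusted p = 0.979).

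The genes of mitotic protein destruction were low in Robo mutant 2. Cdc20, the activator of the anaphase-promoting complex, was at 16.7 and 10.5 CPM in the controls, 9.06 CPM in Robo mutant 1 and 2.11 CPM in Robo mutant 2 (log2 change -1.28, SE 0.78). Ube2c, the ubiquitin-conjugating enzyme of that complex, held 175 and 290 counts in the controls, 103 in Robo mutant 1 and 0 in Robo mutant 2. Tnnc2, which shares 22.8% of its exonic bases antisense, held 0 counts in every library. In both genes Robo mutant 1 was closer to the lower control than to Robo mutant 2 in CPM. Cdca3, which promotes entry into mitosis, was at 7.14 and 8.74 CPM in the controls and 8.08 and 3.23 CPM in the mutant libraries.

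**Figure D5:**
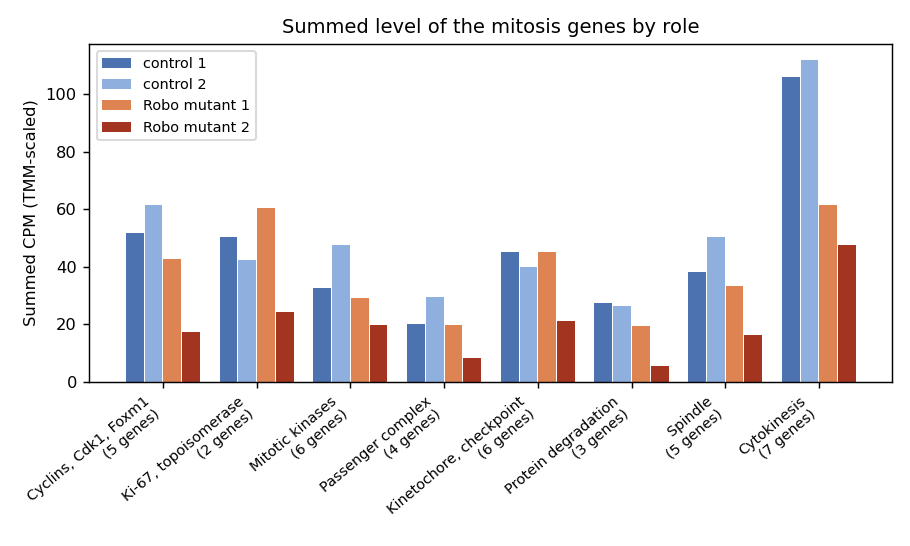
Summed CPM (TMM-scaled) of the 38 mitosis genes by role, with 1 bar per library. The cytokinesis genes are lower in both mutant libraries (61.6 and 47.6 CPM) than in both controls (106 and 112 CPM), and the pair of Ki-67 and topoisomerase genes is highest in Robo mutant 1 at 60.6 CPM.

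In the spindle group, Hmmr (ENSMUSG00000020330, chr11:40701395-40733422, GRCm38), the gene of a spindle assembly protein that also binds hyaluronan, stood at 12.8 and 10.6 CPM in the controls and 3.72 and 3.76 CPM in the mutant libraries. The mutant libraries were nearly equal and the genotypes did not overlap. The means were 11.7 ± 1.53 and 3.74 ± 0.0280 CPM (SD, n = 2 each), 3.13-fold lower in the mutant (log2 change -1.65, SE 0.35). The edgeR test gave an unadjusted p of 0.00695 and an adjusted p of 0.680, and DESeq2 an adjusted p of 0.0450. Kif11 (ENSMUSG00000012443, chr19:37376403-37421859, GRCm38), the kinesin Eg5 that pushes spindle poles apart, was at 6.23 and 14.9 CPM in the controls and 3.68 and 2.44 CPM in the mutant libraries (log2 change -1.79, SE 0.60, edgeR unadjusted p = 0.0345 and adjusted p = 0.756). Without control 2 its log2 change was -1.02.

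Tpx2, the activator of Aurora A, was at 11.1, 11.2 and 12.3 CPM in control 1, control 2 and Robo mutant 1 and at 2.16 CPM in Robo mutant 2. Nusap1, a microtubule bundling protein, was at 5.16 and 10.1 CPM in the controls, 13.4 CPM in Robo mutant 1 and 3.14 CPM in Robo mutant 2. Both showed 1 low mutant library and 1 above the controls. Kif4, the gene of a chromosome-bound kinesin, held 145 and 146 counts in the controls, 0 in Robo mutant 1 and 209 in Robo mutant 2. Its antisense neighbour Pdzd11, which shares 15.1% of its exonic bases, held 1161 to 1567 counts per library.

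Cytokinesis genes were lower in all 7 cases, and in 6 of them both mutant libraries were below both controls, beside 51.3% and 20.4% of all tested genes. One of the 6, Kif20b, was tested only through its control counts and had to show this order. Racgap1 (ENSMUSG00000023015, chr15:99620496-99651656, GRCm38), a subunit of the centralspindlin complex that marks the division plane, stood at 36.5 and 37.2 CPM in the controls and 15.6 and 20.8 CPM in the mutant libraries. It was the member with most counts in both controls and in Robo mutant 2. The means were 36.9 ± 0.502 and 18.2 ± 3.63 CPM (SD, n = 2 each), 2.03-fold lower (log2 change -1.02, SE 0.22, edgeR unadjusted p = 0.00713 and adjusted p = 0.680, DESeq2 adjusted p = 0.0631). Kif23, the kinesin of the same complex, was at 6.60 and 5.28 CPM in the controls and 4.88 and 3.30 CPM in the mutant libraries, a smaller difference (log2 change -0.54, SE 0.47). Ect2, the exchange factor that centralspindlin recruits, was at 15.1 and 12.8 CPM in the controls and 12.1 and 4.09 CPM in the mutant libraries. Anln, the gene of the contractile ring scaffold anillin, was at 18.2 and 13.6 CPM in the controls and 9.70 and 9.37 CPM in the mutant libraries (log2 change -0.74, SE 0.29).

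Kif20a, a kinesin of the central spindle, was at 12.7 and 15.0 CPM in the controls and 4.04 and 8.42 CPM in the mutant libraries (log2 change -1.16, SE 0.46). Its antisense neighbour Cdc23 shares 29.3% of its exonic bases and held 4471 to 5664 counts, far more than the 202 to 613 of Kif20a. Prc1, which bundles the central spindle, was at 12.5 and 23.1 CPM in the controls, 15.2 CPM in Robo mutant 1 and 1.67 CPM in Robo mutant 2, the 1 cytokinesis gene whose genotypes overlapped. Kif20b (ENSMUSG00000024795, chr19:34922361-34975745, GRCm38), a kinesin of late cytokinesis, held 201 and 198 counts in the controls and 0 in both mutant libraries. With a floor of 3 counts per library it was at least 71.9-fold lower in the mutant (edgeR unadjusted p = 0.00165 and adjusted p = 0.680, DESeq2 adjusted p = 1.39e-05). That bound covers counting error only. Between Robo mutant 1 and Robo mutant 2 alone, Ttk went from 229 counts to 0 and Kif4 from 0 to 209. Kif20b entered the test only because both controls exceeded the filter, so a difference in this direction was required of it.

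Counts of 0 were found in 5 members, Bub1b, Ttk, Ube2c, Kif4 and Kif20b, always in a mutant library. Robo mutant 1 had 3 members at 0 and Robo mutant 2 had 3, and neither control had any. That is 13.2% of members with a 0 in a library, beside 12.8% of all tested genes and 3.82% of the 6390 tested genes with a mean count in the members' range of 93 to 1248. A 0 in a mutant library and in neither control was found in 10.1% of all tested genes and 3.58% of those 6390. Among tested genes with a 0, most thus had it only in the mutant libraries. All 5 members were of this kind, or 13.2%, above the 10.1% of all tested genes and the 3.58% in their range. These differences were not tested. By counting error alone, a count of 0 allows up to 3 counts, or 0.0600 CPM in Robo mutant 1 and 0.0660 CPM in Robo mutant 2. The number of cells per library is not given in the sources used here.

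A further 58 genes of mitosis, listed by function, also stood lower in most cases. Their difference from the 38 was not tested. Of the 57 tested, 43 were lower and 14 higher (median log2 change -0.43), beside 51.3% of all tested genes lower. In 22 both mutant libraries were below both controls, beside 20.4% of all tested genes. At an unadjusted p under 0.05 (edgeR), 4 were lower and 0 higher, beside 4.21% and 1.99% of all tested genes. DESeq2 called the same 4 lower, beside 0.605% of all tested genes. Of these 4, 3 were tested only through their control counts. The kinesin gene Kif18b held 179 and 194 counts in the controls, and Espl1, the gene of separase, which cuts sister chromatids apart, held 181 and 173. Cep55, which directs the last cut between daughter cells, held 114 and 145 counts. All 3 were at 0 in both mutant libraries and so had to differ to be tested. With a floor of 3 counts they were at least 67.5-fold, 63.7-fold and 47.1-fold lower, bounds that cover counting error only. Ncapg2, a condensin subunit gene, was at 16.3 and 17.1 CPM in the controls and 4.92 and 6.27 CPM in the mutant libraries (log2 change -1.57, SE 0.30, DESeq2 adjusted p = 0.0173, edgeR adjusted p = 0.680).

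Genes of DNA replication lay around 0. Of 38 S-phase genes, 18 were lower and 20 higher (median log2 change 0.056), and their sums were 714 and 772 CPM in the controls, 862 CPM in Robo mutant 1 and 634 CPM in Robo mutant 2. In 5 of them both mutant libraries were below both controls and in 3 above, beside 20.4% and 16.1% of all tested genes. At an unadjusted p under 0.05 (edgeR) 2 were lower, the helicase subunit genes Mcm3 (log2 change -0.63) and Mcm7 (-1.02), and 0 were higher, beside 4.21% and 1.99% of all tested genes, so the lower count was near the background. The next smallest p belonged to Cdc45 (-1.10) and Gins4 (0.62), partners of that helicase. The difference between the mitosis and S-phase medians was not tested. Without Robo mutant 1 the S-phase median was -0.30.

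Transcriptional regulators of the cell cycle, from E2F factors to MuvB subunits, were lower in 12 of 16 cases, beside 51.3% of all tested genes. Their median log2 change was -0.22. At an unadjusted p under 0.05 (edgeR) 0 were lower and 0 higher, beside 4.21% and 1.99% of all tested genes. The smallest p belonged to E2f1 (log2 change -0.42), Lin9 (-0.93), Rbbp4 (-0.47) and Lin52 (-0.28), the last 3 being MuvB subunit genes. D cyclins, their kinases and the inhibitors of these kinases were higher in 9 of 12 tested cases, with a median of 0.30. The other 3 (25%) were lower, beside the 51.3% of all tested genes. Cdkn1a, the gene of the inhibitor p21, which halts the cycle, was at 20.7 and 18.4 CPM in the controls and 38.9 and 64.5 CPM in the mutant libraries. It was higher in both mutant libraries, highest in Robo mutant 2, with a log2 change of 1.40 (SE 0.30, edgeR unadjusted p = 0.00684 and adjusted p = 0.680, DESeq2 adjusted p = 0.00893). Cdk6 (1.40) and Ccnd3 (0.37), the genes of a G1 kinase and of cyclin D3, were also higher in both mutant libraries, and the inhibitor gene Cdkn2c (-1.05) was lower in both. These 3 did not pass either test.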

How the data were processed

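RNA sequencing was done on 4 libraries of sorted β cells, 2 control and 2 Robo mutant, made with the SMART-Seq v4 and Nextera XT kits, which keep no strand, per the labels' protocols. The submitters' processing notes name bcl2fastq 2.20.0.422, STAR 2.5.3a, RSEM 1.3.0, edgeR 3.16.5 and GRCm38, without saying what edgeR was used for. The authors deposited 1 table of estimated counts per gene in whole numbers. Its name calls them normalized, but the totals differ between libraries, so they were treated as estimated counts, and an earlier rescaling cannot be told apart from depth. There were 0 columns of other samples.

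A gene was tested if 2 or more libraries held 10 or more counts of it (16517 genes). The main test was the two-sided quasi-likelihood test of edgeR 4.0.16 (glmQLFit, glmQLFTest) in R 4.3.3 with TMM factors, adjusted by the Benjamini-Hochberg method over all tested genes, with a threshold of 0.05. A standard error is the log2 change divided by the square root of the F statistic. DESeq2 1.42.0 and limma 3.58.1 were alternatives, and the scripts were tested on simulated data. Log2 levels per library use CPM + 0.5. Positions, exons and neighbours came from GENCODE M21 (GRCm38, 51633 identifiers matched), and near-identical copies from BLAST 2.17.0 at 95% identity over at least 200 bases. The members and lists were chosen with earlier results of these data known. All members may be named, with up to 4 genes of smallest p from each other list, the most abundant marker and the markers at 0. Markers at 0 in some libraries, β-cell markers and antisense neighbours with shared bases were named after their values were seen.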

Additional observations from a re-analysis of the deposited data

How the results depend on the processing

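Of the 38 members, 33 were lower under RLE factors, library totals, DESeq2, both other filters and the main settings, and 36 under limma on quantile-normalized log2 counts. Both mutant libraries were below both controls in 20 members in the main settings, with library totals and without a filter. Under RLE factors, DESeq2, limma and a mean of at least 50 counts it was 19. The share of all tested genes with this order was 18.3% to 23.6% across these settings. The number of genes past the threshold was 0 in edgeR and limma with all libraries, 151 in DESeq2 (51 higher, 100 lower) and 0 to 1 with a library left out. Before adjustment 1025 genes had a p under 0.05 in edgeR (32.1% of them higher) and 1088 in limma (48.6% higher), and 46.7% were higher among genes with a mean of at least 50 counts. Members past the threshold numbered 3 in DESeq2 and 0 otherwise. Leaving out each library in turn gave 1 to 22 members lower at an unadjusted p under 0.05, 20 to 36 with the mutant below the control libraries (30.9% to 42.0% of all genes then tested, against 20.4% with all libraries), and medians from -1.46 to -0.43, the lowest without Robo mutant 1 and the highest without Robo mutant 2. Without a control, Kif20b could not be tested.

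The same omissions gave medians from -1.02 to -0.13 for other mitosis genes, -0.30 to 0.15 for S-phase genes, -0.35 to -0.14 for cell cycle regulators and 0.18 to 0.35 for D cyclins and inhibitors. The last median was 0.23 with library totals, 0.22 with limma and 0.22 without a filter. Direction turned under limma for Ndc80 (-0.75), Nusap1 (-0.073) and Ttk (-1.37). With a library left out, it turned for Birc5 (-1.86 to 0.74), Ccna2 (-3.51 to 0.39), Cdca3 (-1.29 to 0.027), Cenpf (-1.45 to 0.17), Incenp (-0.72 to 0.033), Kif4 (-10.26 to 0.48), Mki67 (-1.11 to 0.079), Ndc80 (-2.73 to 1.00), Nusap1 (-1.27 to 0.82), Pbk (-0.65 to 0.030), Top2a (-0.79 to 0.79), Tpx2 (-2.37 to 0.14) and Ttk (-9.24 to 1.64). Robo1 was at -1.16 without control 2. The causes were not tested. No paired analysis was possible because the labels give the genotypes no shared replicate numbers. With 2 libraries a genotype, small differences are not detectable.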

Other observations

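Levels of different genes can be set side by side only per length. Per kilobase of annotated exon in the controls, Pbk (7.70 CPM per kilobase), Cdc20 (7.25), Ccnb2 (6.64) and Racgap1 (5.21) were the most abundant of the 38 mitosis transcripts, and Kif4 (0.600), Nuf2 (0.543) and Ttk (0.344) the least. Ccnb1 stood at 3.22 CPM per kilobase in the controls and 0.602 in the mutant libraries, and Ccnb2 at 6.64 and 4.52. The exon lengths are those of all annotated isoforms together, so genes with a long alternative exon are understated. The order of Pbk, Cdc20 and Ccnb2 is not resolved, since the control libraries differed by 10.9 against 16.7 CPM for Pbk and 16.7 against 10.5 CPM for Cdc20.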
